A study of Homo sapiens with 6 samples.

Results

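The genes described here are 44 interferon-stimulated and antigen presentation genes, out of 62700 genes in the table. They were taken from a list of symbols that covers interferon effectors, STAT and IRF transcription factors and the class I presentation pathway, and each symbol matched 1 row. Expression was measured by mRNA-seq in A549, an established line of human lung adenocarcinoma epithelium grown in RPMI-1640 with serum. The sgH2AC19 group has 3 libraries from cells with a guide RNA against the histone H2A gene H2AC19, labelled as its knockout. The sgControl group has 3 libraries from cells with a control guide, labelled wild type. The labels name no interferon treatment or infection, and whether the knockout cells are a clone or a pool, or the libraries separate cultures, is not given in the sources used here. The p-values therefore rest on library-to-library spread, part or all of which may be technical.

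Interferons act through receptors that activate the kinases JAK1, JAK2 and TYK2. Type I and type III interferons assemble a complex that contains STAT2 and IRF9 and binds the interferon-stimulated response element (ISRE) in promoters, and interferon gamma acts through a different element, GAS. The target genes encode proteins that sense, modify or degrade viral RNA, block viral entry or tag proteins with ISG15. Class I molecules, which show peptides to T cells, consist of an HLA heavy chain and B2M and are loaded with peptides that TAP1 and TAP2 carry into the endoplasmic reticulum. Many epithelial lines keep low levels of these transcripts without added interferon.

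The values are FPKM, fragments scaled to gene length and to the fragments of the library. Read totals recovered from the steps between values were 35681162 to 45738439 per library. H2AC19 itself was listed at 0 FPKM in all 6 libraries, so it checks neither the knockout nor the labels. On the second principal component of the genes tested (18.2% of the variance), sgH2AC19 replicate 3 stood at −16.0, against 8.09 and 8.32 for sgH2AC19 replicates 1 and 2. Results that turn on this library are given with and without it. The epithelial markers EPCAM, KRT8, KRT18, KRT19 and CDH1 were all at 1 FPKM or more in every library. Of 12 leukocyte markers, CD3E, MS4A1, LILRA4 and CLEC4C were at 0 throughout and PTPRC did not exceed 0.0163 FPKM. Not all were absent, as 1 or 2 of the 12 were at 1 FPKM or more in each library. Of the 12, 1 passed the expression filter given below and was not called (log2 fold change of 0.29). The leukocyte list summed to 3.35 to 4.64 FPKM in sgH2AC19 and 3.09 to 3.22 in sgControl and 6 fibroblast markers to 5.17 to 6.03 in sgH2AC19 and 3.29 to 3.76 in sgControl, where COL1A1 and LUM rose. The epithelial list summed to 753 to 790 FPKM in sgH2AC19 and 586 to 622 in sgControl, with KRT8, KRT18, EPCAM and CDH1 higher and KRT19 lower in sgH2AC19. The part of these marker differences in the results was not tested, and in bulk RNA fewer cells of a type and less RNA per cell cannot be told apart.

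Most of the 44 genes were weakly expressed in both groups. By the mean over the 6 libraries, 15 were under 1 FPKM, 24 between 1 and 10, and 5 at 10 or more. The median member stood at 2.25 FPKM, and the 29 members that passed the expression filter (at least 1 FPKM in at least 3 libraries) had a median of 3.57, against 5.46 for all 12871 genes tested. B2M led at 103 FPKM, followed by HLA-E at 29.02, IFITM2 at 23.0, HLA-C at 19.3 and TRIM25 at 15.2. At the low end were XAF1, a proapoptotic protein, at 0.0101 FPKM, OAS2 at 0.0555, IFI44L at 0.118, the RNA helicase gene DHX58 at 0.133 and the GTPase gene MX1 at 0.184. XAF1 rested on 0 to 5 reads per library and MX1 on 78 to 201, so small differences in XAF1 were not detectable at this depth. The classical indicators of an interferon response IFIT1 and ISG15 were at 0.969 and 2.53 FPKM.

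**Figure D1:**
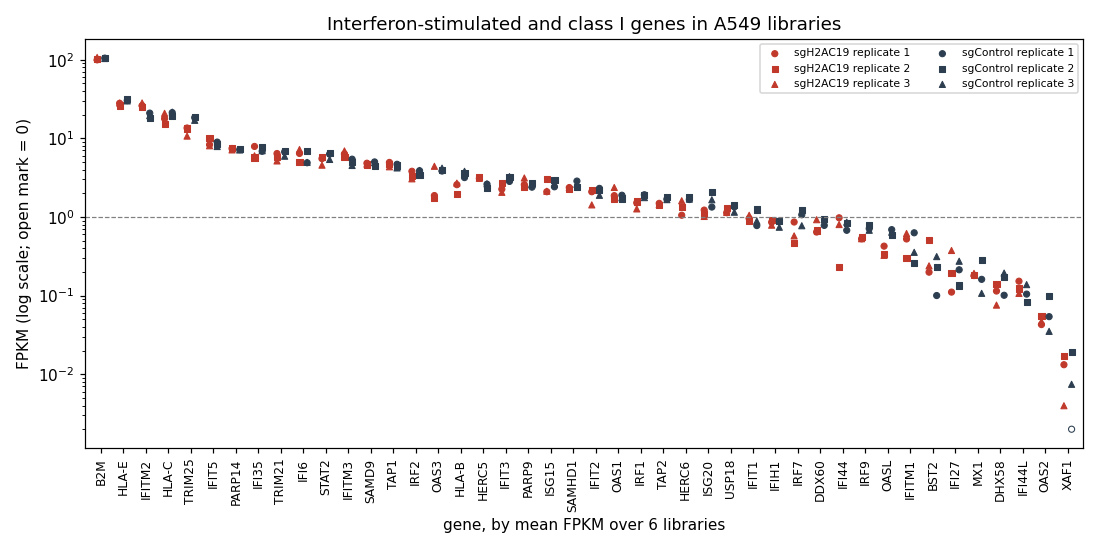
FPKM of the 44 genes in each library on a log axis, ordered by the mean over the 6 libraries, with sgH2AC19 in red left of sgControl in dark blue, the marker shape giving the replicate, an open mark a value of 0 and the dashed line 1 FPKM. Levels run from 0.0101 FPKM for XAF1 to 103 FPKM for B2M, and for most genes the points of the 2 groups lie close together.

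The promoters of many of these genes share the core of the ISRE, which is shown here because it is the sequence through which the genes are classically induced. The word GAAANNGAAA was searched on both strands from 250 bases before to 50 bases after the annotated start in RefSeq (GRCh38.p14). Of 35 members in that promoter table, 24 (68.6%) held at least 1 match, against 4.38% of all 27305 genes in it. IFIT2, OAS2, OASL, IRF2, IRF7, IFITM2, DHX58, USP18 and HLA-E were not in the table. Windows of 30 bases, read along the gene's strand with the match in capitals, follow, 1 match per gene, for 3 members that were called between the groups (IFITM3, HERC5 and IFIT3), for OAS3, and for 3 that were not called (ISG15, B2M and TAP2). In HERC5 and IFIT3 the match is the reverse complement of the word.
IFITM3, chr11:320876-320905, minus strand: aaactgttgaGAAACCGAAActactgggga
HERC5, chr4:88457035-88457064, plus strand: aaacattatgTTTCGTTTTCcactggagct
IFIT3, chr10:89327865-89327894, plus strand: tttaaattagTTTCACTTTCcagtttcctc
OAS3, chr12:112938321-112938350, plus strand: agaaagaaacGAAACTGAAAgcagggaatt
ISG15, chr1:1013380-1013409, plus strand: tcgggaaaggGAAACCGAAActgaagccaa
B2M, chr15:44711369-44711398, plus strand: ctaagaaaagGAAACTGAAAacgggaaagt
TAP2, chr6:32838778-32838807, minus strand: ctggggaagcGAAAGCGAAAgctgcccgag

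The comparison of sgH2AC19 with sgControl asks whether these genes differed once H2AC19 was targeted. In limma on log2(FPKM + 1) with Benjamini-Hochberg adjustment over all genes tested and a threshold of 0.05, 3 of the 29 members tested rose (IFITM2, IFITM3 and HERC5) and 3 fell (TRIM25, HLA-B and IFIT3). That is 20.7% of the members, against 23.1% of all genes tested, of which 12.0% rose and 11.0% fell. The median log2 fold change of the 29 was −0.12, with 20 below 0 and 9 above, against a median of −0.01 over all genes tested. Their groups did not overlap in 12 of 29, 41.4%, against 43.2% of all genes tested, with sgH2AC19 the lower group in 9 (31.0%, against 21.7% of all genes tested) and the higher group in 3 (10.3%, against 21.5%). Over both directions, the shares of members called and of separated groups lie close to those of the whole table. The shares by direction are descriptions, and their difference from the table was not tested. Folds on this scale understate the change of genes near 1 FPKM.

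IFITM2 and TRIM25 kept their calls when any 1 of the 6 libraries was left out, and HERC5, IFITM3, HLA-B and IFIT3 did not. The number of the 29 members called ranged from 2 without sgControl replicate 2 or sgControl replicate 3 to 8 without sgH2AC19 replicate 3. Over all genes tested, the calls also varied. They were 1513 of 12644 without sgControl replicate 2, 1632 of 12634 without sgControl replicate 3 and 3429 of 12681 (27.0%) without sgH2AC19 replicate 3. When the 36938 genes with any value above 0 FPKM were all fitted, 2 of the 44 members were called, IFITM2 and TRIM25, where 4.20% of the genes were called. The 15 members that did not pass the expression filter are part of that count.

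The transcription factors of the pathway were lower on average in sgH2AC19, and 0 of the 3 tested were called by limma. IRF1 had an unadjusted p under 0.05 and was called by voom on recovered reads (adjusted p = 0.0137). Voom called 3543 of the 12871 genes tested, against 2967 by limma. STAT2, a subunit of the ISRE-binding complex, was at 5.52, 5.81 and 4.56 FPKM in sgH2AC19 and 6.31, 6.55 and 5.39 in sgControl, and the groups overlap. IRF1, which activates class I and interferon gamma targets, was at 1.51, 1.57 and 1.27 FPKM in sgH2AC19 and 1.92, 1.92 and 1.76 in sgControl. Its groups do not overlap, and its log2 fold change was −0.23 (SE 0.0752, adjusted p = 0.0662). IRF2, which competes with IRF1, was at 3.81, 3.33 and 3.05 FPKM in sgH2AC19 and 3.87, 3.45 and 3.91 in sgControl, with a log2 fold change of −0.11 (SE 0.0783, adjusted p = 0.339).

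IRF9 and IRF7 did not pass the expression filter. IRF9, the DNA-binding subunit of the ISRE complex, was at 0.527, 0.554 and 0.529 FPKM in sgH2AC19 and 0.712, 0.790 and 0.678 in sgControl. All 3 sgH2AC19 libraries lie below all 3 sgControl libraries, and in the fit over all genes above 0 FPKM the difference was not called (−0.17, SE 0.0745, adjusted p = 0.332). Of the 50-base words in annotated IRF9 transcripts, 43.6% also occur in transcripts of other genes, nearly all of them in AL136295.5, so its value is uncertain. IRF7, which amplifies the interferon response, was at 0.862, 0.472 and 0.574 FPKM in sgH2AC19 and 1.07, 1.21 and 0.774 in sgControl, with overlapping groups.

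The IFITM genes, which lie next to each other on chromosome 11 and encode small membrane proteins that hinder the entry of enveloped viruses, contributed most of the rises. IFITM2 (ENSG00000185201) was at 26.0, 25.0 and 28.2 FPKM in sgH2AC19, against 20.9, 18.3 and 19.4 in sgControl. Every sgH2AC19 library was above every sgControl library, with means of 26.4 ± 1.63 and 19.6 ± 1.31 FPKM (SD, n = 3 each) and a log2 fold change of 0.41 (SE 0.0653, adjusted p = 0.0057). IFITM3 (ENSG00000142089) was at 6.34, 5.85 and 6.92 FPKM in sgH2AC19 and 5.43, 4.94 and 4.52 in sgControl. It rose by 0.31 (SE 0.0776, adjusted p = 0.0296), and lost its call without sgH2AC19 replicate 1 (adjusted p = 0.0711), sgH2AC19 replicate 3 (0.0526), sgControl replicate 2 (0.0873) or sgControl replicate 3 (0.0925). IFITM1, which did not pass the filter, was at 0.525, 0.303 and 0.616 FPKM in sgH2AC19 and 0.629, 0.258 and 0.355 in sgControl, with overlapping groups.

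The IFITM values carry a limit of sequence. In GENCODE 29 (GRCh38), IFITM2 spans chr11:307631-315272 on the plus strand and overlaps IFITM1 at chr11:313506-315272. Of the 50-base words of IFITM2 transcripts 34.1% also occur in other genes, 21.6% in IFITM1 and 12.9% in IFITM3, and 17.4% of those of IFITM3 do. How reads shared by these genes were assigned is not given in the sources used here, so the members of this family are not independent measurements.

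**Figure D2:**
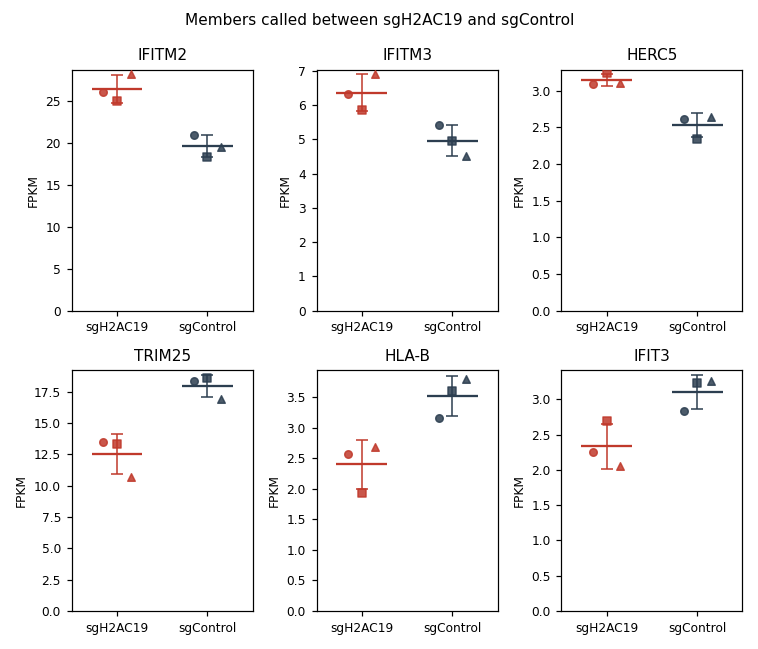
FPKM per library of the 6 members called, from a baseline of 0, with sgH2AC19 in red left of sgControl in dark blue, circles, squares and triangles for replicates 1, 2 and 3, a horizontal line for the mean and a bar for 1 SD (n = 3). IFITM2, IFITM3 and HERC5 are higher in sgH2AC19, TRIM25, HLA-B and IFIT3 are lower, and in each the groups do not overlap.

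Of the 4 members listed under the ISG15 system, which attaches the ubiquitin-like protein ISG15 to other proteins, only the ligase gene HERC5 was called. HERC5 (ENSG00000138646) was at 3.09, 3.24 and 3.10 FPKM in sgH2AC19 and 2.61, 2.34 and 2.64 in sgControl. It rose by 0.23 (SE 0.0588, adjusted p = 0.0295), with all sgH2AC19 libraries above all sgControl libraries. The call was lost without any 1 library other than sgH2AC19 replicate 3, with adjusted p-values of 0.0629 to 0.0981. HERC6, the neighbouring HERC gene on chromosome 4, was listed under this system, and whether it acts on ISG15 was not tested. HERC6 was at 1.05, 1.33 and 1.61 FPKM in sgH2AC19 and 1.67, 1.80 and 1.69 in sgControl. Its groups do not overlap in the other direction, and it was not called (−0.23, SE 0.0976, adjusted p = 0.136), though it was without sgH2AC19 replicate 3 (−0.31, adjusted p = 0.0394). ISG15 itself (−0.11, SE 0.112, adjusted p = 0.526) and USP18, the protease that removes ISG15 (−0.07, SE 0.0796, adjusted p = 0.573), had overlapping groups. Of the 50-base words of USP18, 23.4% also occur in other genes, mainly USP41.

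TRIM25, a ubiquitin ligase that activates the RNA sensor RIG-I, fell in sgH2AC19. It was at 13.5, 13.3 and 10.7 FPKM in sgH2AC19, against 18.4, 18.6 and 16.9 in sgControl. The means were 12.5 ± 1.59 and 17.95 ± 0.879 FPKM (SD, n = 3 each), and the log2 fold change was −0.49 (SE 0.0896, adjusted p = 0.0095). The lowest value is that of sgH2AC19 replicate 3, and the groups do not overlap. With 5033 to 9106 reads per library, TRIM25 was among the best covered members. The RIG-I gene RIGI was scarce, at 0.0662 to 0.135 FPKM over the 6 libraries on 26 to 64 reads, and was not tested. TRIM21, an antibody receptor of the cytosol, was at 6.41, 5.78 and 5.16 FPKM in sgH2AC19 and 6.73, 6.93 and 5.92 in sgControl, with overlapping groups and no call (−0.15, SE 0.0837, adjusted p = 0.228).

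Among the IFIT genes, whose proteins bind viral RNA, IFIT3 fell and its tested neighbours on chromosome 10 were not called. IFIT3 (ENSG00000119917) was at 2.26, 2.69 and 2.06 FPKM in sgH2AC19 and 2.83, 3.24 and 3.26 in sgControl. Its log2 fold change was −0.30 (SE 0.0858, adjusted p = 0.0419), and the call was lost without any 1 library other than sgH2AC19 replicate 2, with adjusted p-values of 0.0581 to 0.127. IFIT2 (−0.12, SE 0.117, adjusted p = 0.483) and IFIT5 (0.06, SE 0.089, adjusted p = 0.688) had overlapping groups. IFIT5 was the most abundant of the family, at 8.30, 10.2 and 8.04 FPKM in sgH2AC19 and 8.95, 8.46 and 7.86 in sgControl. IFIT1 averaged 0.969 ± 0.0761 FPKM in sgH2AC19 and 0.970 ± 0.245 in sgControl (SD, n = 3 each) and did not pass the filter.

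The OAS genes on chromosome 12 encode enzymes that make 2′-5′ oligoadenylates, the activators of RNase L, and OAS3 among them divided the sgH2AC19 libraries. OAS3 (ENSG00000111331) was at 1.87 and 1.74 FPKM in sgH2AC19 replicates 1 and 2 and at 4.41 in sgH2AC19 replicate 3, against 3.84, 3.92 and 4.18 in sgControl. Replicates 1 and 2 lie far below every sgControl library, and replicate 3 above all of them. These values rest on 1119 to 3057 reads per library. With all libraries OAS3 was not called (−0.51, SE 0.241, adjusted p = 0.167), and without sgH2AC19 replicate 3 it was (−0.83, SE 0.0614, adjusted p = 0.000655), in a fit that called 27.0% of the genes tested. Its neighbour OAS1 was at 1.87, 1.70 and 2.37 FPKM in sgH2AC19 and 1.89, 1.71 and 1.76 in sgControl, and OAS2 stayed under 0.1 FPKM in all 6 libraries.

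In ADAR, which encodes an RNA-editing adenosine deaminase, and in APOL6, an apolipoprotein L gene, sgH2AC19 replicate 3 was also well above replicates 1 and 2. Both are interferon-stimulated genes outside the 44 and were picked, like OAS3, after their values had been seen. ADAR was at 18.4 and 18.5 FPKM in sgH2AC19 replicates 1 and 2 and at 29.4 in sgH2AC19 replicate 3, against 27.6, 27.7 and 27.9 in sgControl. APOL6 was at 2.94, 3.22 and 4.59 FPKM in sgH2AC19 replicates 1, 2 and 3, against 4.98, 4.88 and 5.20 in sgControl. The ADAR value of replicate 3 lies above every sgControl library, and that of APOL6 below every sgControl library. Neither was called by limma with all libraries (ADAR −0.35, SE 0.163, adjusted p = 0.167, and APOL6 −0.41, SE 0.124, adjusted p = 0.0524), and both were without sgH2AC19 replicate 3 (ADAR −0.56, SE 0.0355, adjusted p = 0.000422, and APOL6 −0.56, SE 0.0572, adjusted p = 0.00158). APOL6 was called with all libraries when the replicate number was a block (adjusted p = 0.0382) and by voom on recovered reads (adjusted p = 0.0113). What set this library apart was not tested.

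**Figure D3:**
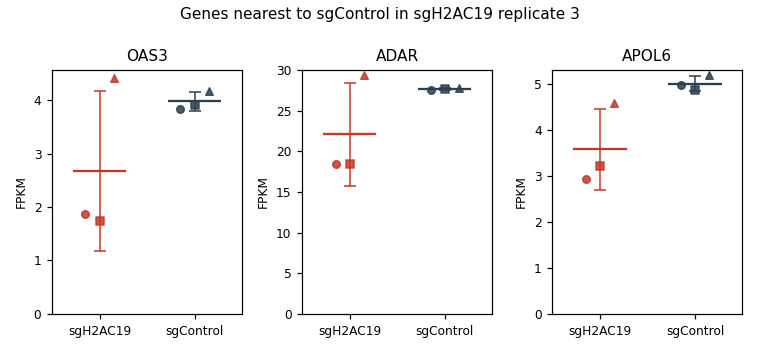
FPKM per library of OAS3, ADAR and APOL6 from a baseline of 0, with sgH2AC19 in red left of sgControl in dark blue, circles, squares and triangles for replicates 1, 2 and 3, a line for the mean and a bar for 1 SD (n = 3). In sgH2AC19 the triangle of replicate 3 lies at or near the sgControl level in each gene (4.41 FPKM for OAS3), and replicates 1 and 2 lie well below it (1.87 and 1.74 FPKM).

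OASL, a relative of the OAS enzymes without their activity, was lower in sgH2AC19 but scarce. It was at 0.426, 0.342 and 0.325 FPKM in sgH2AC19 and 0.690, 0.589 and 0.640 in sgControl, on 77 to 164 reads. The groups do not overlap, and in the fit over all genes above 0 FPKM it was not called (−0.27, SE 0.0747, adjusted p = 0.133). OASL and IRF9 were the members under the filter whose groups were apart.

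The cytosolic RNA sensor genes IFIH1 (MDA5), DHX58 and DDX60 stayed under 1 FPKM in all 6 libraries and were not tested. IFIH1 averaged 0.852 ± 0.0631 FPKM in sgH2AC19 and 0.840 ± 0.0857 in sgControl, and DDX60 0.746 ± 0.154 and 0.886 ± 0.0918 (SD, n = 3 each). PARP9 and PARP14, ADP-ribosyltransferase family genes induced by interferon, were tested and not called. PARP14, with 2676 to 3485 reads per library, was at 7.42, 7.62 and 7.12 FPKM in sgH2AC19 and 7.18, 7.34 and 7.11 in sgControl, a log2 fold change of 0.03 (SE 0.0458, adjusted p = 0.677). PARP9 stood at 0.06 (SE 0.0831, adjusted p = 0.644), with 3.13 FPKM in sgH2AC19 replicate 3 as its highest value.

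Of the 11 other effectors, 5 were tested and 0 were called by limma. ISG20 alone among them had an unadjusted p under 0.05 and was called by voom on recovered reads (adjusted p = 0.0183). ISG20, an RNA exonuclease, was at 1.22, 1.10 and 1.02 FPKM in sgH2AC19 and 1.34, 2.09 and 1.65 in sgControl. Its groups do not overlap (−0.34, SE 0.111, adjusted p = 0.0651), and it was called without sgControl replicate 1 (−0.44, adjusted p = 0.0404). SAMHD1, which depletes deoxynucleotides, was at 2.37, 2.27 and 2.37 FPKM in sgH2AC19 and 2.86, 2.43 and 2.60 in sgControl, also with separate groups and no call (−0.12, SE 0.0642, adjusted p = 0.212). IFI6 (6.42, 4.97 and 7.20 FPKM in sgH2AC19, and 4.89, 6.98 and 4.95 in sgControl), IFI35 (7.88, 5.70 and 6.00 in sgH2AC19, and 6.85, 7.68 and 6.96 in sgControl) and SAMD9 had overlapping groups. IFI35 was called without sgH2AC19 replicate 1 (−0.25, adjusted p = 0.0486). The tetherin gene BST2 and IFI27, IFI44, IFI44L, MX1 and XAF1 were under 1 FPKM in every library, with overlapping groups.

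**Figure D4:**
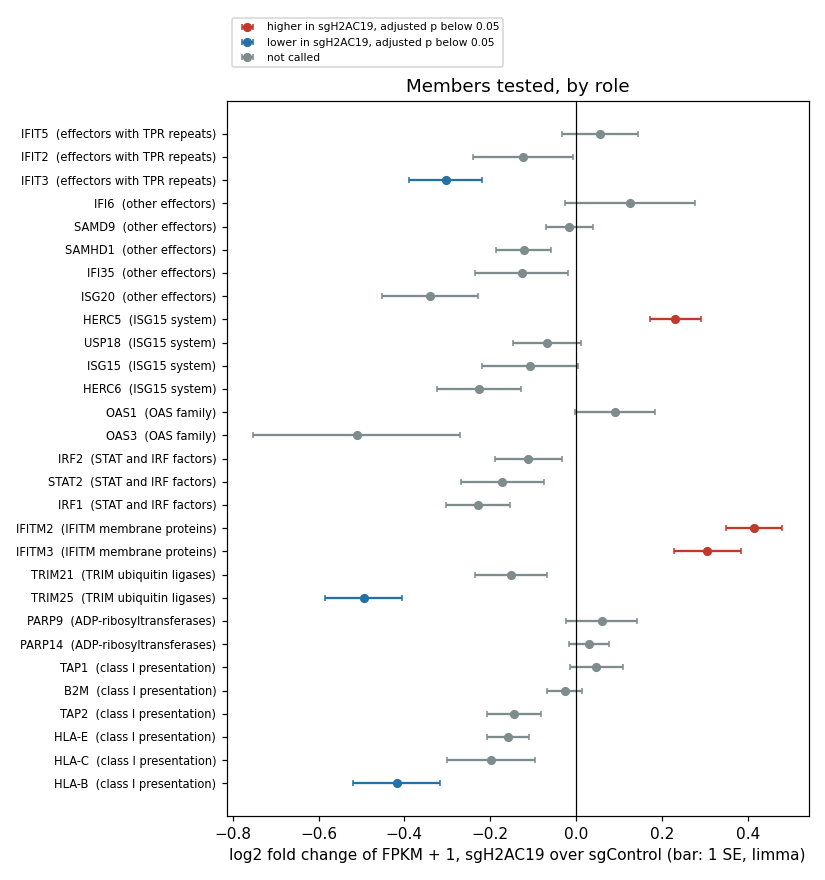
Log2 fold change of FPKM + 1, sgH2AC19 over sgControl, for the 29 members tested, grouped by role, with bars of 1 SE from limma and red or blue points for members called higher or lower in sgH2AC19. Values run from −0.51 for OAS3, which has the widest bar, to 0.41 for IFITM2, and 23 members were not called.

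In class I presentation, the heavy chain gene HLA-B fell while B2M, the shared light chain, differed little. HLA-B (ENSG00000234745) was at 2.57, 1.93 and 2.69 FPKM in sgH2AC19, against 3.17, 3.61 and 3.81 in sgControl. The groups do not overlap, and HLA-B fell by 0.42 on the log2 scale (SE 0.102, adjusted p = 0.0258), with the call lost without sgControl replicate 2 (adjusted p = 0.0834) or sgControl replicate 3 (0.0865). B2M was at 99.5, 101 and 107 FPKM in sgH2AC19 and 105, 104 and 104 in sgControl, with a log2 fold change of −0.03 (SE 0.041, adjusted p = 0.682). The 6 class I members summed to 154, 150 and 164 FPKM in sgH2AC19 and 166, 165 and 165 in sgControl.

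The more abundant heavy chains were lower on average without passing the threshold. HLA-C was at 17.8, 15.4 and 20.8 FPKM in sgH2AC19 and 21.2, 19.2 and 21.6 in sgControl (−0.20, SE 0.103, adjusted p = 0.205), and the groups overlap through sgH2AC19 replicate 3. HLA-E, which presents leader peptides to natural killer cell receptors, was at 27.9, 26.2 and 28.1 FPKM in sgH2AC19 and 30.2, 31.9 and 29.9 in sgControl. Its groups do not overlap and it lay just outside the threshold (−0.16, SE 0.0483, adjusted p = 0.053). Without sgH2AC19 replicate 3 both were called, HLA-C at −0.30 (adjusted p = 0.032) and HLA-E at −0.18 (adjusted p = 0.0398).

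HLA values are uncertain where copies share reads. Of the 50-base words in transcripts of HLA-B 2.72% also occur in other genes, of HLA-C 5.38% and of HLA-E 4.34%, and in GENCODE 29 HLA-B overlaps HLA-C on chromosome 6. A549's own HLA alleles may differ from the reference, and the effect of this on the counts was not tested. The peptide transporter genes were tested and not called. TAP1 was at 4.94, 4.66 and 4.35 FPKM in sgH2AC19 and 4.68, 4.51 and 4.20 in sgControl (0.05, SE 0.061, adjusted p = 0.611). TAP2 was at 1.49, 1.42 and 1.43 FPKM in sgH2AC19 and 1.68, 1.77 and 1.66 in sgControl, with separate groups and no call (−0.14, SE 0.0628, adjusted p = 0.138), and 31.3% of its 50-base words also occur in AL669918.1.

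Members with and without the ISRE core were compared as a description. Of the 15 tested members with a match, 2 rose, 1 fell and the median log2 fold change was −0.02. Of the 9 tested members in the promoter table with no match, 0 rose and 2 fell in limma, TRIM25 and HLA-B, with a median of −0.20. None of them was higher at an unadjusted p under 0.05 or in voom. By both of these measures IRF1 was also lower among them, and ISG20 was also lower among the members with a match. Over the whole table, 325 tested genes held the word, of which 49 rose and 34 fell, 25.5% against 23.1% of all genes tested, and their median was −0.01. The GAS core TTCNNNGAA was found in 11 of the 35 members (31.4%), against 9.38% of all genes in the promoter table, and of the 5 of these that were tested 0 were called by limma, IRF1 having an unadjusted p under 0.05 and a call in voom. A window without these letters says nothing of the factors that bind it.

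Other genes of the pathway were counted by lists. One list held 16 genes, mainly sensors and adaptors that induce interferon, and also ADAR and EIF2AK2, which that name does not describe well. Of the 16, 12 were tested, 1 rose and 6 fell, 58.3% against 23.1% of all genes tested, with a median log2 fold change of −0.20. TRAF3, an adaptor of antiviral signalling, was at 6.27, 5.94 and 5.90 FPKM in sgH2AC19 and 4.39, 4.81 and 4.35 in sgControl, a rise of 0.35 (SE 0.0542, adjusted p = 0.0052). MYD88, the adaptor of most Toll-like receptors, was at 5.22, 4.60 and 5.59 FPKM in sgH2AC19 and 6.60, 7.02 and 6.68 in sgControl (−0.34, SE 0.0687, adjusted p = 0.0135). Other falls were those of TICAM1, the adaptor of TLR3 (−0.39), of IRF3, the factor that switches on interferon genes (−0.24), and of AZI2 (−0.22). The remaining falls, with larger adjusted p-values, were those of CGAS and EIF2AK2. Of these 7 calls only that of TRAF3 held when any 1 library was left out, and MYD88 lost its call only without sgControl replicate 2.

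The interferon gamma receptor chains moved in opposite directions. Of 22 genes for interferons, their receptors and JAK-STAT signalling, 12 were tested, 2 rose and 2 fell, 33.3% against 23.1% of all genes tested, with a median log2 fold change of 0.00. IFNGR1, the ligand-binding chain, was at 53.7, 53.5 and 45.0 FPKM in sgH2AC19, against 33.4, 30.7 and 32.0 in sgControl, a rise of 0.64 (SE 0.0747, adjusted p = 0.00201). IFNGR2, the signalling partner chain, was at 10.3, 10.4 and 8.99 FPKM in sgH2AC19, against 13.0, 13.9 and 12.8 in sgControl, a fall to a log2 fold change of −0.39 (SE 0.0653, adjusted p = 0.00729). Both kept their calls when any 1 library was left out. The kinase gene JAK1 rose by 0.16 and SOCS3, a feedback inhibitor of JAK signalling, stood at −0.38 (adjusted p = 0.0153), both with calls that were lost without 1 library or another. Of the interferon genes themselves, only IFNE passed the expression filter and was tested, and it was not called. The interferon genes given here were picked after their values had been seen. IFNA1 was at 0.173 to 0.930 FPKM over the 6 libraries, with overlapping groups. IFNG and IFNK were listed at 0 in all libraries and IFNB1 did not exceed 0.0668 FPKM, while IFNE, an epithelial interferon gene, was at 6.61, 8.51 and 7.91 FPKM in sgH2AC19 and 7.09, 7.36 and 5.75 in sgControl.

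Further interferon-stimulated genes were called at about the rate of the table. Of 45 listed, 30 were tested, 4 rose and 2 fell, 20.0% against 23.1% of all genes tested, with a median log2 fold change of 0.04. OGFR, the opioid growth factor receptor, was at 7.28, 6.47 and 6.58 FPKM in sgH2AC19, against 3.53, 3.61 and 3.55 in sgControl (0.77, SE 0.0554, adjusted p = 0.000419). LY6E, a membrane protein that restricts coronavirus entry, rose by 0.27 and the helicase gene ZNFX1 by 0.17, while TDRD7 was at −0.30 and PARP12 at −0.23. Of the 6 calls, OGFR and TDRD7 kept their calls without any 1 library.

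Other class I pathway genes were called at a rate near that of the table. Of 19 listed, 15 were tested, 2 rose and 2 fell, 26.7% against 23.1% of all genes tested, with a median log2 fold change of −0.05. CALR, the chaperone calreticulin of the peptide-loading complex, was at 331, 341 and 362 FPKM in sgH2AC19, against 251, 269 and 246 in sgControl (0.43, SE 0.0521, adjusted p = 0.00224). PDIA3, its partner oxidoreductase, rose by 0.26 (SE 0.0483, adjusted p = 0.0111). Both are also general folding factors of the endoplasmic reticulum, and both kept their calls without any 1 library. RFX5, a factor of HLA promoters, was at −0.15 and the proteasome activator gene PSME2 at −0.19, with calls that were each lost in all 6 fits without 1 library. None of the 9 class II genes listed was tested.

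**Figure D5:**
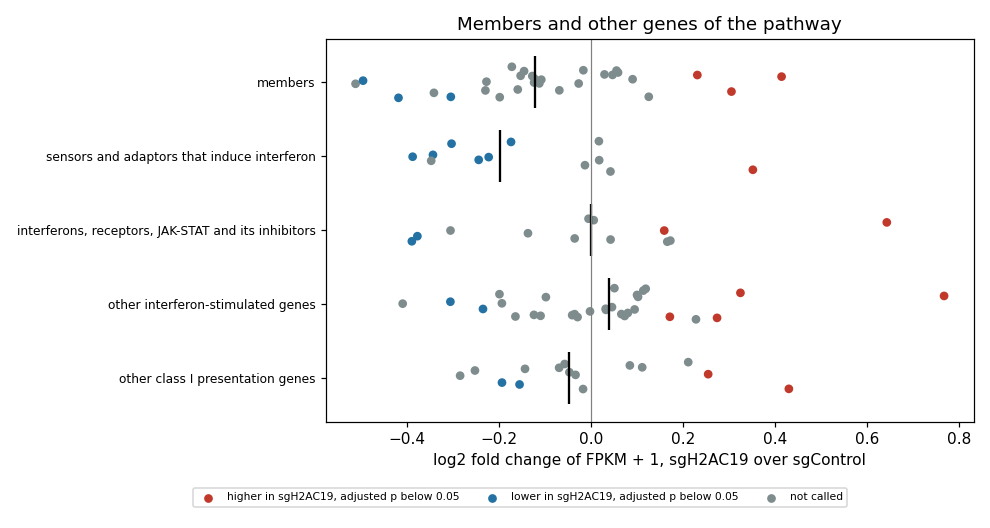
Log2 fold change of FPKM + 1, sgH2AC19 over sgControl, of each tested gene among the members and in 4 lists of other pathway genes, with red or blue points for genes called higher or lower in sgH2AC19, grey points for genes not called and a black line at the median. Medians lie at −0.12 for the members, −0.20 for sensors and adaptors, 0.00 for receptors and JAK-STAT genes, 0.04 for other interferon-stimulated genes and −0.05 for other class I genes.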

How the data were processed

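The A549 libraries came from a SMARTer mRNA kit according to the labels' protocols. The deposited table holds FPKM made by the authors, 1 column per library, per the file headers. For the aligner, counter and annotation, nothing is given in the sources used here. The submitters' processing notes name the mouse builds GRCm38 and mm10, while all 62700 gene IDs are human. Columns named sgH2AC were taken as sgH2AC19 and sgNC as sgControl, by group name and number.

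The 12871 genes that reached 1 FPKM in 3 or more libraries were compared on log2(FPKM + 1) with limma 3.58.1 (R 4.3.3, trend, two-sided, Benjamini-Hochberg). A gene is named called where its adjusted p is below 0.05. Reads were recovered from the FPKM steps with GENCODE 29 lengths, or else the smallest length giving whole reads: all 12871 tested genes gave whole reads in every library within 0.001 reads, 3759 at the annotated length. FPKM do not correct for composition. No pair of libraries was identical (0 pairs). The fit was also run on simulated data with independent noise and larger changes than those of the members called, so that run does not check their calls. Python 3.11.15 was used for other steps.

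All 44 members are named. Values in every library are given for members called, members with separated groups, the 10 most abundant, STAT and IRF factors and class I genes. Called genes of the pathway lists, up to 5 each, are named with a fold change, and those given in every library, like the uncalled genes, were picked after their values were seen. The members and lists were chosen with earlier results of these data known. Alternatives were 2 other scalings, a pseudocount of 0.1, 2 other filters, the replicate number as a block, voom on recovered reads and leaving out each library. Some genes of the pathway lists are not reported here.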

Additional observations from a re-analysis of the deposited data

How the results depend on the processing

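The 6 calls among the members were the same in number under median-ratio and upper-quartile scaling, a pseudocount of 0.1 and a mean filter of 1 FPKM. Voom on recovered reads called 9 of the 29 members tested, adding falls of HLA-E, IRF1 and ISG20. It also called more genes over the whole table, 3543 of 12871 against 2967 in the main fit. Over all genes above 0 FPKM, 2 members and 1553 genes were called, with more genes sharing the adjustment. Without 1 library, members called ranged from 2 to 8 and genes called from 1513 to 3429. With the replicate number as a block, 4 members and 2729 genes were called, and HERC5 (adjusted p = 0.0644) and IFITM3 (0.0512) lost their calls. Same-numbered libraries deviated together only weakly (correlations of 0.0524, 0.0346 and 0.0602), so the numbers were not taken as pairs, though each sgH2AC19 library correlated best with its own number. Signs that turned without 1 library were all of members not called, whose log2 fold changes then ranged from −0.20 to 0.00097 for IFIT2, −0.0386 to 0.11 for IFIT5, −0.0013 to 0.16 for OAS1, −0.0198 to 0.11 for PARP9 and −0.058 to 0.0113 for SAMD9. The cause was not tested.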
